A study of Mus musculus with 6 samples.

Results

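The Notch receptors Notch1, Notch2, Notch3 and Notch4, the ligands Jag1 and Jag2 and the target genes Hes1, Hey1, Hey2 and Heyl were followed in dermal fibroblasts with stabilized β-catenin. These 10 genes were taken by symbol from the 41126 genes of the all-gene RNA-seq table, in which each had 1 entry. RNA-seq counts the sequenced fragments that come from the transcripts of each gene. There were 3 control cultures, infected with an adenovirus carrying GFP (AdGFP, genotype given as +/+), and 3 gain-of-function (GOF) cultures, infected with an adenovirus carrying Cre (AdCre, genotype given as Ctnnb1 Δex3/+). All were primary ventral dermal fibroblasts of postnatal day 4 mice on a mixed CD1 and C57Bl6 background. Cre removes exon 3 of Ctnnb1, and the β-catenin then made lacks the site that marks it for degradation. Virus and β-catenin thus both differ between the groups and cannot be told apart. The labels name AdCre at 366 to 500 MOI for 6 h as the treatment of every culture, although their source and genotype fields name AdGFP for the controls, and the study's methods describe the same Ctnnb1 allele in the cells of both groups. The titles carry 4 numbers that were taken here as animals. Of these, 2 stand on a culture of each group, so that Control replicate 2 and GOF replicate 0 shared an animal, as did Control replicate 0 and GOF replicate 2.

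Notch signaling passes between touching cells. A Jagged or Delta ligand on the surface of a cell binds a Notch receptor on its neighbour, the receptor is cut, and its intracellular domain moves to the nucleus, where it joins RBPJ and Mastermind proteins and turns on Hes and Hey genes, which encode transcriptional repressors. In skin the pathway is known for its part in epidermal differentiation and in the hair follicle, and Jag1 has been described as a β-catenin target in the epidermis. In blood vessels, Notch4, Hey1 and Hey2 are known from endothelium, and Notch3 and Heyl from pericytes and smooth muscle.

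The libraries held 35980831 to 42834467 fragments. Control replicate 0 and GOF replicate 2, from the same animal, stood apart from the other libraries of their groups (chi-square per degree of freedom of 160 to 218 against them, and 28.8 and 73.0 between the others). Axin2, a direct β-catenin target, was at 0.136 to 0.177 FPKM in the controls and 14.4 to 19.2 FPKM in the GOF libraries. FPKM scales fragments to transcript length and library size, so levels can be compared between genes. Of the 10 fibroblast markers examined, Col3a1 was left out because its estimate failed, and the others summed to 3029 to 3872 FPKM in controls and 2495 to 3031 FPKM in GOF libraries. Within them Dcn fell from 1058 to 330 FPKM, and Vim was at 798 and 1339 FPKM. Of 10 endothelial markers, Pecam1, Cdh5, Tie1, Erg and Vwf stayed under 1 FPKM in every library. Tek, Kdr, Flt1, Emcn and Egfl7 passed 1 FPKM in some libraries, with Flt1 at 9.61 FPKM in Control replicate 1. Of 10 keratinocyte markers, 9 stayed under 1 FPKM in every library, Dsp being the exception. The pericyte and smooth muscle list summed to 1673 to 2336 FPKM in controls and 2010 to 3662 FPKM in GOF libraries, most of it Acta2, which cultured fibroblasts also make.

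Promoter windows from RefSeq (GRCm38.p6, 250 bases before to 50 bases after the start site) were found for 7 of the 10 genes, all but Hes1, Hey1 and Heyl. They were searched on both strands for the core letters bound by RBPJ (TGGGAA) and by the TCF/LEF partners of β-catenin (CTTTGA). The TCF/LEF letters occurred in 1 of the 7, that of Jag1, and in 16% of the 32851 windows of the table. The RBPJ letters occurred in 1, that of Hey2, and in 25.6% of all windows. Both windows are shown because Jag1 is the ligand called among the members and Hey2 is a Notch target. Capitals mark the letters found. In Jag1, at chr2:137116471-137116770 on the minus strand, they begin at base 275 of the window and read CTTTGA on the other strand. In Hey2, at chr10:30842734-30843033 on the minus strand, they begin at bases 44 (other strand) and 248.
Jag1: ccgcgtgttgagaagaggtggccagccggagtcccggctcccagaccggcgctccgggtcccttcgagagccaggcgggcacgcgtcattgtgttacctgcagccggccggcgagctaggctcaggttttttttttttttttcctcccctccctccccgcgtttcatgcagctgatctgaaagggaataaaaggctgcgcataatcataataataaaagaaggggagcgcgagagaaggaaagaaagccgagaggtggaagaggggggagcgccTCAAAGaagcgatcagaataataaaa
Hey2: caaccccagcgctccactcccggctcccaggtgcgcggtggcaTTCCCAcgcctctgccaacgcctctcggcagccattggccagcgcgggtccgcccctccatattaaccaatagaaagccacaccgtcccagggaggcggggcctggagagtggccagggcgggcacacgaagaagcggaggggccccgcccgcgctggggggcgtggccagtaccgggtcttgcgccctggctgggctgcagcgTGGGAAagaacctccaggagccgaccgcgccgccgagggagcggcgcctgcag
A match describes the letters of these windows only.

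Among the members, Jag1 fell in GOF fibroblasts and Notch1 fell by less, while no member was called higher with all 6 libraries and no block. Hes1, the most abundant target, was lower in every GOF library but did not pass the test. Notch2, the main receptor, was not called in either direction. Differential expression was tested with edgeR on fragments over all genes, and a gene was called where it changed more than 2-fold with an adjusted p under 0.05. Of the 10 members, 8 had enough fragments to be tested, and Jag2 and Heyl did not. Among the 8, 1 was called lower and 0 higher, and at an unadjusted p under 0.05 there were 4 lower and 0 higher, beside 17.3% and 17.6% of all genes tested. DESeq2 and limma on log2(FPKM + 1) also called 0 higher. Other settings called some: 1 with the animal as a block (Notch3), 1 without the filter on low counts (Jag2) and 2 when GOF replicate 1 was left out (Notch3 and Jag2). In that last fit Jag2 passed the filter only through the GOF libraries in which it was high, so its call there supports nothing. Over all genes, the animal block called 1096 of 15462 higher. No filter on low counts gave 1187 of 24494 higher, and leaving out GOF replicate 1 gave 954 of 15918. Fewer cells expressing a gene and less RNA per cell cannot be told apart in bulk samples, for these or any later values. Over the 15462 genes tested, 5.64% were called lower and 6.69% higher, 12.3% in all. At the adjusted p alone, 2 of the 8 were lower, against 10.2% of all genes tested (21.2% in either direction). The FPKM of all GOF libraries lay below all controls for 4 of the 8 (19.2% of all genes tested) and above for 0 (20.3%, or 39.5% in either direction). The median log2 fold change of the 8 members was -0.60, and that of all genes tested was -0.02.

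**Figure D1:**
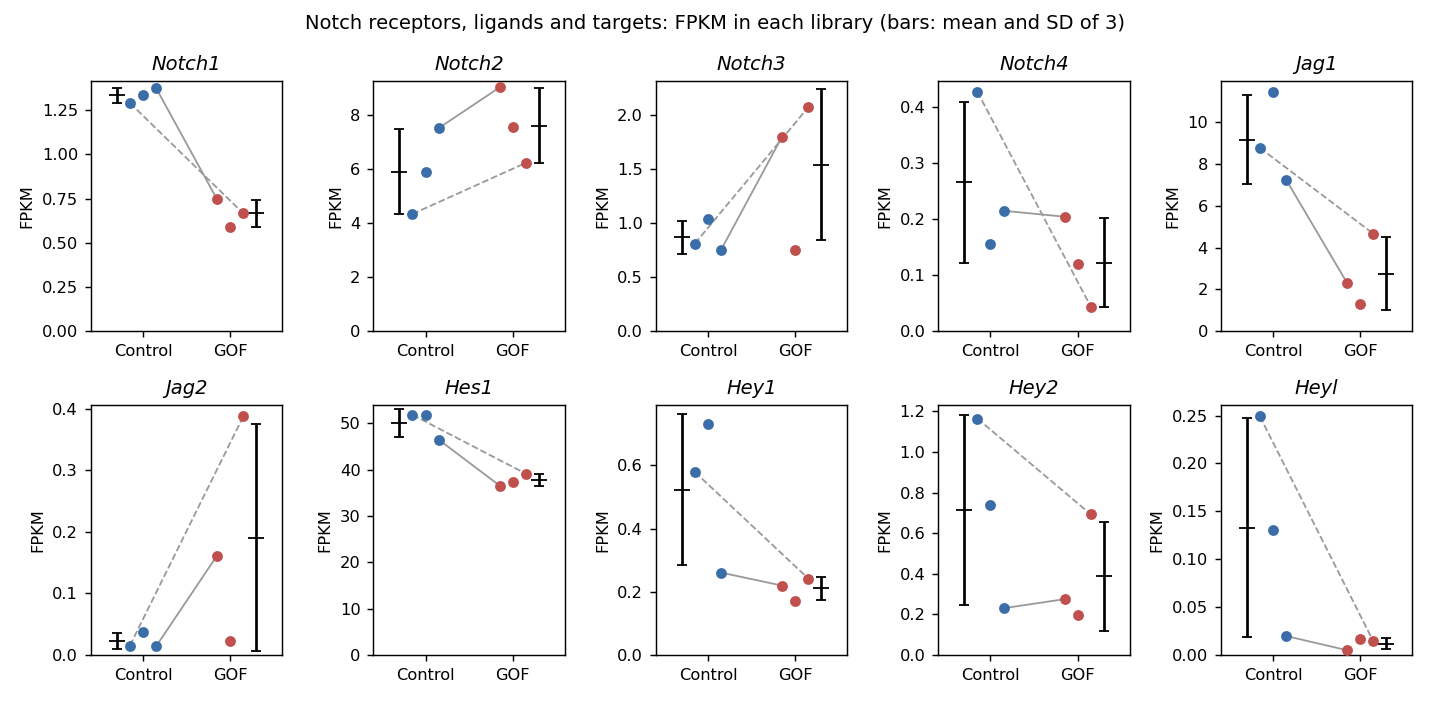
FPKM of the 10 members (y axes, each from 0) in 3 Control and 3 GOF libraries, with the mean and SD of each group beside the points; within a group the points stand in the order of replicates 0, 1 and 2. Grey lines join cultures of the same animal (solid, Control 2 and GOF 0; dashed, Control 0 and GOF 2). Notch1, Jag1, Hes1, Hey1 and Heyl have no overlap between groups, and GOF replicate 1 stands apart from the other GOF libraries for Notch3. For Jag2, GOF replicate 1 lies within the range of the controls and GOF replicate 2 is well above all other libraries.

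Notch2 is the receptor that these fibroblasts expressed most (chromosome 3 from 98013527 to 98150361). Its FPKM was 4.34, 5.88 and 7.52 in Control replicates 0, 1 and 2 and 9.03, 7.57 and 6.23 in GOF replicates 0, 1 and 2. The groups overlapped, since GOF replicate 2 was below Control replicate 2. With means of 5.91 ± 1.59 and 7.61 ± 1.40 FPKM (SD, n = 3 each), the log2 fold change was 0.33 (95% confidence interval -0.16 to 0.83), with an adjusted p of 0.307 from edgeR. The interval excludes a change of 2-fold in either direction. Within each of the animals that gave both cultures, Notch2 FPKM was higher in the GOF culture, by 0.26 and 0.52 on the log2 scale. The annotation places Gm42820, for which no value was analysed here, on the same strand over exons of Notch2, so fragments of the pair may have been shared.

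Notch1, a receptor with well known roles in epidermis and T cells, lies on chromosome 2 from 26457903 to 26516663. It was at 1.29, 1.33 and 1.38 FPKM in the controls and 0.745, 0.591 and 0.667 FPKM in the GOF libraries. All GOF libraries were thus below all controls, by more than the spread within either group. The mean fell from 1.33 ± 0.0423 to 0.668 ± 0.0770 FPKM (SD, n = 3 each, with p = 0.1 in a two-sided exact permutation test, as low as 3 against 3 libraries can give). On fragments the log2 fold change was -0.81 (SE 0.20, edgeR adjusted p = 0.0271), short of 2-fold. By mean FPKM, which fell further than the fragments did, the GOF level was 0.501 times that of controls. Within the animals that gave both cultures, the log2 ratios of FPKM were -0.88 and -0.95. Their fragments fell by less, from 341 (Control replicate 2) to 234 (GOF replicate 0) and from 338 (Control replicate 0) to 259 (GOF replicate 2). The adjusted p of Notch1 was under 0.05 in 11 of 16 alternative fits. It rose to 0.0947 with the animal as a block (log2 fold change -0.58) and 0.106 with the label number as a block (-0.82). Leaving out single libraries, it reached 0.108 (no Control replicate 1), 0.0804 (no GOF replicate 0) and 0.0659 (no GOF replicate 1). The noncoding gene 0610009E02Rik overlaps Notch1 exons on the other strand. It had 18 to 30 fragments per library, whereas Notch1 had 164 to 431, and whether counting used the strand is not given in the sources used here.

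Notch3, known as a receptor of vascular mural cells, lies on chromosome 17 from 32120820 to 32166852. Its control libraries were at 0.810, 1.04 and 0.751 FPKM. GOF replicates 0 and 2 were at 1.80 and 2.07 FPKM, above every control, whereas GOF replicate 1 was at 0.750 FPKM, just under the lowest control. Notch3 was not called (log2 fold change 0.80, SE 0.40, edgeR adjusted p = 0.200). GOF replicates 0 and 2 are those whose animals also gave a control culture, and within these animals Notch3 was higher in the GOF culture by 1.26 and 1.35 on the log2 scale of FPKM. With the animal as a replicate block, a fit with 1 residual degree of freedom in which Control replicate 1 and GOF replicate 1 carry no weight, the log2 fold change was 1.33 (edgeR adjusted p = 0.00524) and Notch3 was called higher. Single libraries decided the value: without GOF replicate 1, its low GOF library, Notch3 was called (log2 fold change 1.15, edgeR adjusted p = 0.0230), while leaving out GOF replicate 2 gave 0.45 (edgeR adjusted p = 0.462). With the animal as a random effect in limma it was not (adjusted p = 0.0851). Of the other mural markers, here chosen after their values were seen, Rgs5 averaged 2.87 and 1.99 FPKM and Cspg4 2.83 and 2.30 FPKM in controls and GOF, and neither was called. Cnn1, of smooth muscle, was called higher, at 86.9 and 211 FPKM. Myh11 averaged 10.1 FPKM in controls and was at 22.0, 10.9 and 25.3 FPKM in GOF replicates 0, 1 and 2. It was not called (edgeR adjusted p = 0.0920), nor were Acta2, Des, Kcnj8, Abcc9 and Mcam, the rest of the list. Their part in the Notch3 values was not tested. The antisense gene Gm17276 overlaps exons of Notch3 and had 6 to 18 fragments per library, against 204 to 691 for Notch3.

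Notch4, the receptor best known from endothelium, lies on chromosome 17 from 34564268 to 34588503 and was the least abundant. It had 17, 28 and 23 fragments in the controls and 23, 17 and 13 in the GOF libraries. With so few fragments, a log2 fold change between -1.19 and 0.40 (95% confidence interval) could not be told from 0 (edgeR adjusted p = 0.452). FPKM spread more widely, from 0.154 to 0.426 in controls and from 0.0439 to 0.204 in GOF libraries, and the groups overlapped. The FPKM of Notch4 did not follow its fragments. Control replicate 0 had 17 fragments and the highest FPKM, and Control replicate 1 had 28 fragments and the lowest control FPKM. The endothelial marker list summed to 13.8 to 19.8 FPKM in controls and 13.2 to 15.2 FPKM in GOF libraries. In that list, named after their values were seen, Tek and Flt1 fell, with log2 fold changes of -2.27 and -1.38, and Kdr rose by 1.77 (edgeR adjusted p of 0.0190, 0.0350 and 0.0110). Their part in the Notch4 values was not tested.

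Taken as shares of the summed FPKM of the 4 receptors, Notch2 made up 63.2% to 76.3% in controls and 69.2% to 83.8% in GOF libraries. The share of Notch1 was 14.0% to 18.8% in controls and 6.33% to 7.40% in GOF libraries, without overlap. Notch3 took 7.62% to 12.4% in controls, and 15.3%, 8.31% and 22.9% in GOF replicates 0, 1 and 2. In GOF replicates 0, 1 and 2, Notch3 thus stood above Notch1, whereas in each control it stood below. The sum itself ran from 6.86 to 9.86 FPKM in controls and from 9.01 to 11.8 FPKM in GOF libraries, so the groups overlapped in total receptor transcript. Shares rest on FPKM, in which Notch1 fell further than in fragments. They are a description, and no test was made on them.

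**Figure D2:**
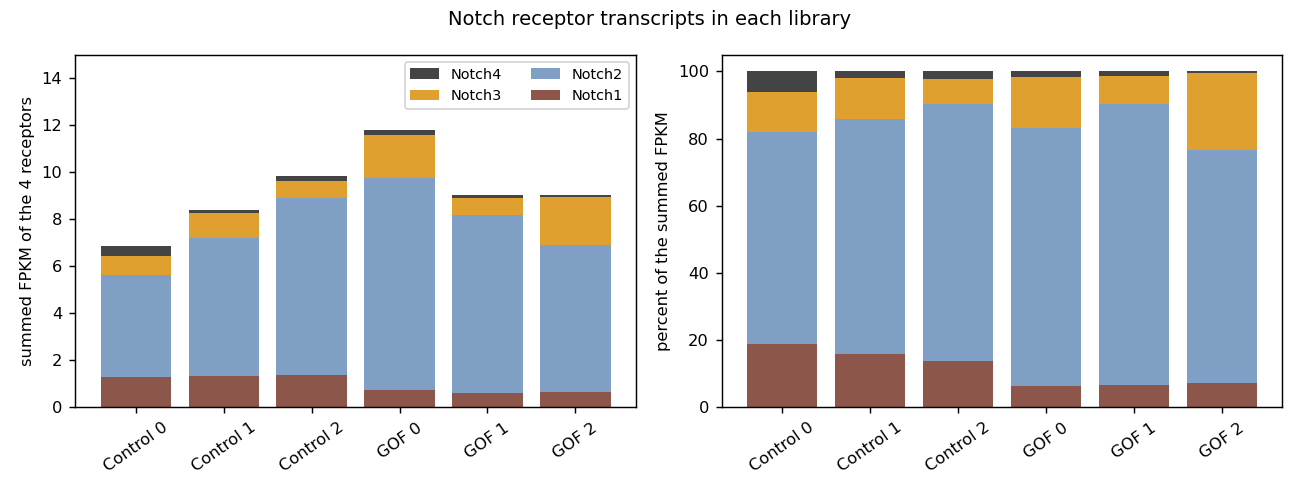
FPKM of Notch1 to Notch4 stacked for each of the 6 libraries, as sums (left) and as percent of the sum (right). Notch2 forms the largest block in every library, and the Notch1 block shrinks from 14.0% to 18.8% in the Control libraries to 6.33% to 7.40% in the GOF libraries.

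Jag1, the most abundant of the Jagged and canonical Delta ligands in these cells, lies on chromosome 2 from 137081456 to 137116644. It was at 8.78, 11.5 and 7.26 FPKM in Control replicates 0, 1 and 2 and at 2.31, 1.30 and 4.68 FPKM in GOF replicates 0, 1 and 2. Every GOF library was below every control, and GOF replicate 2 was nearest to them. Mean FPKM fell from 9.17 ± 2.13 to 2.76 ± 1.73 (SD, n = 3 each), 3.32-fold lower in GOF (p = 0.1 in the same exact permutation test). The log2 fold change was -1.76 (standard error 0.42, 95% confidence interval -2.74 to -0.78, edgeR adjusted p = 0.0241). Jag1 was lower within both shared animals, by -1.65 and -0.91 on the log2 scale of FPKM, and the log2 fold change was -1.29 with the animal as a block, which again rests on these pairs (edgeR adjusted p = 0.00589). It was called lower in 14 of 16 alternative fits. The exceptions left out Control replicate 1 (log2 fold change -1.55, edgeR adjusted p = 0.0695) or GOF replicate 0 (-1.64 and 0.0992). Leaving out GOF replicate 2, the GOF library nearest to the controls, gave -2.35 (edgeR adjusted p = 0.00472).

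Jag2, a ligand known from epithelia, lies on chromosome 12 from 112907819 to 112929776 and was close to silent in controls, with 2, 6 and 2 fragments. GOF replicates 0, 1 and 2 had 23, 3 and 62 fragments. As with Notch3, the GOF cultures of the shared animals were the higher ones. GOF replicate 1 lay within the range of the controls for Jag2. Jag2 did not pass the filter on low counts, so it has no test here. Over the groups, 88 GOF against 10 control fragments gave a ratio of 8.31 after scaling to library size (95% exact binomial interval 4.31 to 17.9, which covers counting error only and not the spread between libraries). Without that filter, its log2 fold change was 3.03 and it was called higher (edgeR adjusted p = 0.0416). In FPKM, Jag2 stayed minor: it was 0.174% to 0.320% of the summed FPKM of both ligands in controls and 1.76% to 7.65% in GOF libraries. The sum was 7.28 to 11.5 FPKM in controls and 1.32 to 5.06 FPKM in GOF libraries, without overlap. Among keratinocyte markers, Krt5 and Krt14 averaged at most 0.0265 FPKM in either group. Dsp and Lor were called higher, with log2 fold changes of 5.74 and 3.38 (edgeR adjusted p of 0.000232 and 0.00370), Lor averaging 0.0434 and 0.531 FPKM. Epcam was too low to test, with 1, 3 and 0 fragments in controls and 6, 5 and 4 in GOF libraries. In FPKM each GOF library was above each control for Epcam, with means of 0.0161 and 0.0611. Krt10 averaged 0.387 and 0.379 FPKM and was not called. Trp63 and Krt15, too low to test, fell in mean from 0.0248 to 0.00641 FPKM and from 0.0381 to 0.00822 FPKM, with overlapping groups. The list summed to 0.533 to 0.737 FPKM in controls and 3.58 to 7.22 FPKM in GOF libraries, most of the latter from Dsp, which averaged 4.27 FPKM in GOF. Lor, Epcam, Krt10, Trp63 and Krt15 are named after their values were seen. The part of these markers in the Jag2 values was not tested.

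**Figure D3:**
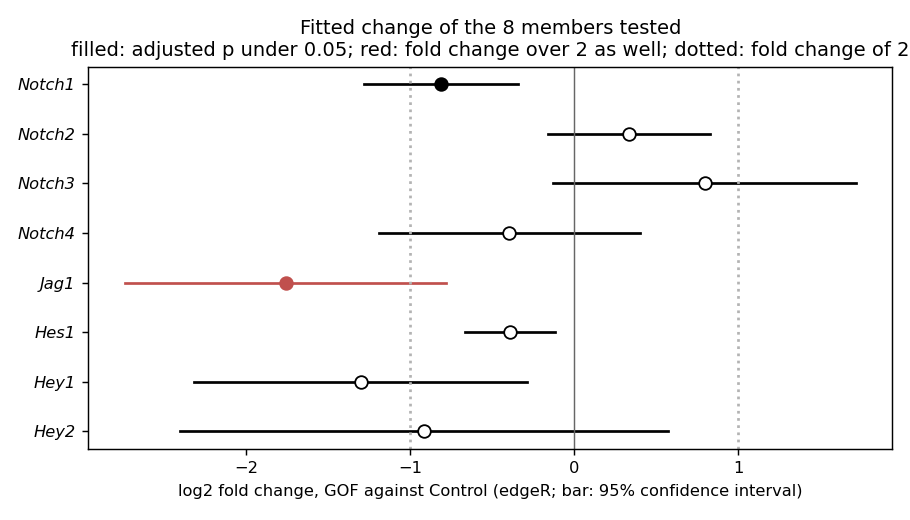
Log2 fold change of GOF against Control (x axis) for the 8 members with enough fragments to test, with 95% confidence intervals from edgeR. The intervals of Notch1, Jag1, Hes1 and Hey1 lie below 0, and 2 points, Notch1 and Jag1, are filled for an adjusted p under 0.05, with Jag1 also past a fold change of 2.

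Hes1, the basic helix-loop-helix repressor that is the most widely used Notch readout, was by far the most abundant target (chromosome 16 from 30064384 to 30067796). Its controls were at 51.8, 51.9 and 46.5 FPKM and its GOF libraries at 36.6, 37.4 and 39.1 FPKM. The groups did not overlap and the GOF libraries lay close together. The means were 50.1 ± 3.10 and 37.7 ± 1.31 FPKM (SD, n = 3 each, with p = 0.1 in the exact permutation test), a log2 fold change of -0.39 (95% confidence interval -0.67 to -0.11). The adjusted p was 0.0536 from edgeR, which misses the threshold. It was under 0.05 in 7 of the 16 alternatives, DESeq2 (0.0245) and library totals (0.0310) among them, and as high as 0.224 in others. The interval excludes a 2-fold fall, and the log2 ratios of FPKM within the shared animals were -0.35 and -0.41. Hes1 was higher than 87.8% of the tested genes in mean FPKM, and it made up 96.3% to 98.9% of the summed FPKM of the 4 targets in controls and 97.6% to 99.0% in GOF libraries.

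Hey1, Hey2 and Heyl, the Hes-related repressors, were at most 1.16 FPKM in any library. Hey1 (chromosome 3 from 8663359 to 8667256) was at 0.579, 0.730 and 0.261 FPKM in controls and 0.220, 0.172 and 0.242 FPKM in GOF libraries. Its groups did not overlap, although Control replicate 2 came close to the GOF libraries. The log2 fold change of -1.30 (SE 0.44, edgeR adjusted p = 0.0726) did not pass. Of 15 alternatives 1 called it, the fit without Control replicate 2, its lowest control, at -1.63 (edgeR adjusted p = 0.0313). With the animal as a block it was -0.80 (edgeR adjusted p = 0.244), and without Control replicate 1 it was -1.02 (edgeR adjusted p = 0.239). The log2 ratios of FPKM within the shared animals were -0.25 and -1.26.

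Hey2 (chromosome 10 from 30832359 to 30842801) was at 1.16, 0.741 and 0.230 FPKM in controls and 0.275, 0.194 and 0.693 FPKM in GOF libraries. Its groups overlapped, and the cultures of the animal behind Control replicate 0 and GOF replicate 2 were the highest and the third highest of the 6. The log2 fold change was -0.92 (SE 0.64, edgeR adjusted p = 0.352). It moved to -0.37 without Control replicate 0 and to -1.57 without GOF replicate 2, and was called in neither (edgeR adjusted p of 0.709 and 0.156). Its sign differed between the shared animals on FPKM, 0.26 in the one and -0.75 in the other.

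Heyl (chromosome 4 from 123233556 to 123249875) had 26, 28 and 4 fragments in controls and 1, 3 and 3 in GOF libraries. All GOF libraries were below all controls, but Control replicate 2 by a single fragment only. It did not pass the filter on low counts. Scaled to library size, the 7 GOF fragments were 0.114 times the 58 of the controls (95% exact binomial interval 0.0439 to 0.250, counting error only). Without the filter, Heyl was called lower (log2 fold change -3.06, edgeR adjusted p = 0.0239). For Hes1, Hey1, Hey2 and Heyl alike, Control replicate 2 was the lowest control.

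The rest of the pathway was read from a list of 58 genes in 8 roles, of which 48 were tested. Dlk2 rose and Neurl1b, Dtx3l and Dtx4 fell, so 1 was called higher and 3 lower, against 6.69% and 5.64% of all genes tested. At the adjusted p alone, 3 were higher and 8 lower (11.1% and 10.2% of all genes tested). The median log2 fold change of the 48 was -0.09. Those called or past the adjusted p lay among ligands, ligand endocytosis, cleavage, the nuclear complex and turnover.

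Of the other ligands, Dlk2, a noncanonical Delta-like protein, was at 0.319, 0.170 and 0.227 FPKM in controls and 3.33, 2.88 and 2.05 FPKM in GOF libraries. In GOF replicates 0 and 1 this was above Jag1, which was at 2.31 and 1.30 FPKM there. The log2 fold change of Dlk2 was 3.58 (SE 0.39, edgeR adjusted p = 0.00114), and it was called in 16 of 16 alternatives. Its relative Dlk1 averaged 1.82 and 1.19 FPKM and was not called (edgeR adjusted p = 0.141), although it was called lower without Control replicate 0 (log2 fold change -1.09, edgeR adjusted p = 0.0377). The canonical Delta ligands were scarce. Dll1, named after its values were seen, averaged 0.203 FPKM in controls and 0.119 FPKM in GOF libraries and was not called, and Dll3 and Dll4 were too low to test. Jag1 was thus the only canonical ligand above 1 FPKM in any library.

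Ligand endocytosis, which pulls on the bound receptor, depends on Mib and Neuralized ubiquitin ligases. Neurl1b fell from 0.226 ± 0.0635 to 0.0843 ± 0.0185 FPKM (SD, n = 3 each), with -1.21 as its log2 fold change (edgeR adjusted p = 0.0374), although it was called in only 5 of 15 alternatives, not with the animal as a block and in none that left out a library. Mib1 was the most abundant of the group, at 21.6 and 20.1 FPKM, and was not called. In the turnover group, Dtx3l and Dtx4, members of the Deltex family of ubiquitin ligases, fell with log2 fold changes of -1.05 and -1.34 (adjusted p = 0.0240 and 0.0125 from edgeR). Dtx4 was at 1.42, 2.58 and 2.13 FPKM in controls and 0.819, 1.01 and 0.635 FPKM in GOF libraries. Dtx3l was called in 9 and Dtx4 in 14 of 16 alternatives. Without Control replicate 0 Dtx3l was not called, nor was it without Control replicate 2, GOF replicate 0 or GOF replicate 2, and Dtx4 was not called without GOF replicate 0. Itch, the most abundant of the group, averaged 25.8 and 24.7 FPKM and was not called.

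A further 7 genes passed the adjusted p without reaching 2-fold, and are named after their values were seen. Rbpj, the DNA-binding partner of the cleaved receptor, rose from 19.8 ± 2.41 to 29.3 ± 4.87 FPKM (SD, n = 3 each; log2 fold change 0.57, edgeR adjusted p = 0.0429). Of its coactivators, Maml2 and Kat2b fell, with log2 fold changes of -0.81 and -0.75. Maml1, Maml3, Ep300, Crebbp and Kat2a, of the same role, did not pass (edgeR adjusted p of 0.101 to 0.913). Adam17, a protease that can cut Notch receptors, and Mib2 fell by 0.64 and 0.73 on the log2 scale. Adam10, of the same role as Adam17, averaged 27.1 and 25.1 FPKM and was not called (log2 fold change -0.09, edgeR adjusted p = 0.583). Dtx3 fell by 0.98. Fbxw7, which marks the cleaved receptor for degradation, rose from 7.46 ± 1.31 to 15.6 ± 5.79 FPKM (SD, n = 3 each; log2 fold change 0.96, edgeR adjusted p = 0.0162). Rbpj kept an adjusted p under 0.05 in 8 of 16 alternatives, whereas Maml2, Kat2b and Dtx3 did in 16. Fbxw7 passed 2-fold and was called in 5 alternatives, among them both fits that use the shared animals, the block (log2 fold change 1.12, edgeR adjusted p = 0.0126) and the random effect (limma adjusted p = 0.00586). Dtx3 was called in 4, among them without Control replicate 0 (log2 fold change -1.06) and without GOF replicate 0 (-1.04).

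The most abundant tested gene of each remaining role was not called. Psenen, a subunit of the γ-secretase that releases the intracellular domain, averaged 102 FPKM in controls and 105 FPKM in GOF libraries. Poglut1, which glycosylates the receptors, averaged 31.0 and 29.5 FPKM. In the same role Lfng, named after its values were seen, averaged 1.57 and 0.807 FPKM and was not called, but was called lower without GOF replicate 2 (log2 fold change -1.28, edgeR adjusted p = 0.0465). Snw1, of the nuclear complex, averaged 32.5 and 34.0 FPKM, and Hdac2, of the corepressors, 74.4 and 61.1 FPKM. Their values, in the order Psenen, Poglut1, Snw1 and Hdac2, did not pass (adjusted p of 0.971, 0.664, 0.796 and 0.152 from edgeR). Hes6 was the one tested among the other Hes genes, at 13.2 and 11.4 FPKM (edgeR adjusted p = 0.480).

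**Figure D4:**
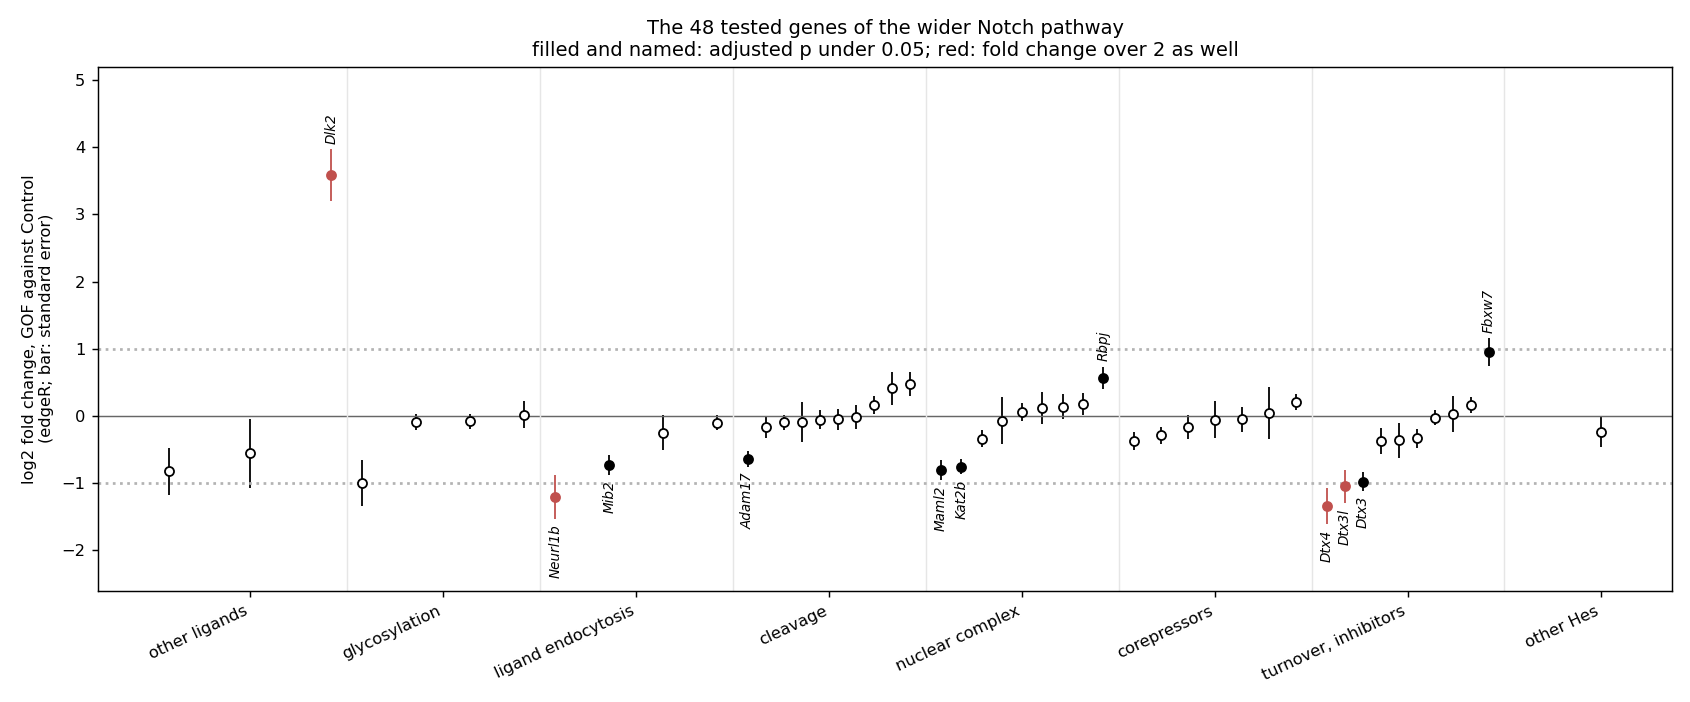
Log2 fold change of GOF against Control (y axis, with standard errors from edgeR) for the 48 tested genes of the wider Notch pathway, grouped by role along the x axis and ordered by value within a role. Dlk2 stands at 3.58, far above the other genes, while Neurl1b, Dtx3l and Dtx4 are the genes past a fold change of 2 on the lower side.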

How the data were processed

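RNA-seq libraries of 6 dermal fibroblast cultures were analysed, 3 Control and 3 GOF. The authors aligned stranded paired-end reads to the mm10 genome using TopHat and ran Cuffdiff. Their versions are not given in the sources used here. The estimated counts are the raw fragments that the authors' Cuffdiff run gave per gene and library, deposited without normalization. FPKM values were deposited as scaled by the authors' Cuffdiff run. A further 2 columns of per-library values and the lncRNA table were not used, nor were 32 genes whose estimate failed in a library, no member among them. A gene name table gave a symbol to 97.9% of identifiers, and positions came from the GENCODE annotation of GRCm38, the assembly of mm10.

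Fragments, 4.95% of them not whole, were rounded and fitted with edgeR 4.0.16 in R 4.3.3 (filterByExpr, TMM, quasi-likelihood test without covariates, Benjamini-Hochberg adjustment over 15462 genes). An exact permutation test on FPKM (scipy 1.17.1) was added for single genes. Alternatives used DESeq2 1.42.0, limma 3.58.1, other normalizations and filters, blocks and each library left out. The script was tested on simulated data. Replicate numbers do not mark shared animals. Cultures whose titles share an animal number deviated together from their group means (r = 0.432 and 0.527 across genes), while those with the same replicate number did not (r of -0.493 to 0.0389). Deviations cancel within a group, so these correlations depend on each other and are not separate evidence on the animals. Within a group each culture has its own animal number. The members and lists were chosen with earlier results of these data known. Genes named by a rule set beforehand were all members, the called genes of the wider list, the most abundant tested gene of each role, Axin2, and markers near 0 or most abundant. Further genes were named after their values were seen, most of them marked so where they appear.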

Additional observations from a re-analysis of the deposited data

How the results depend on the processing

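Low counts kept Jag2 and Heyl out of the test. Without a filter on low counts, 1 member was called higher (Jag2) and 2 lower (Jag1 and Heyl), beside 1187 higher and 948 lower of 24494 genes tested. With the animal as a replicate block, 1 member (Notch3) and 2 wider pathway genes were called higher, beside 1096 of 15462 genes tested. The count of wider pathway genes called higher was 2 as well with the animal as a random effect and with limma on log2(FPKM + 0.1). In the latter fit 1 wider gene was called lower. With the label number as a replicate block, 1 wider gene was called lower, and the call of Jag1 held (adjusted p = 0.0475). With limma on log2(FPKM + 1), 481 genes of the table were called higher and 396 lower, with 0 wider genes lower. Keeping genes at 1 FPKM or more in at least 3 libraries gave 639 genes higher. With each library left out in turn, members called higher ran from 0 to 2 and lower from 0 to 3. Wider genes ran from 1 to 2 higher and from 1 to 3 lower. Of the 15799 to 15952 genes tested, 742 to 1059 were called higher and 569 to 909 lower. No member changed sign in these fits, although Hey2 was 0.26 higher (log2 FPKM) in the GOF culture of one shared animal. Jag2 and Heyl entered the test in 5 alternatives each. With a library left out, they entered through the group in which they were high, so calls of them there (Jag2 without GOF replicate 1, Heyl without Control replicate 2) support nothing. Notch4, Hey1 and Hey2 could not be fitted under the minimum FPKM. The cause of these shifts was not tested.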
